A study of Zea mays with 6 samples.

Results

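The tocochromanol synthesis genes considered here were 5 maize gene models of the 46430 genes listed in the files. The set was fixed by identifier and not by any measured value, but it was chosen with earlier results of these data known. Its members are Zm00001d015356 (hppd1), Zm00001d046558 (hggt1), Zm00001d015985 (vte1), Zm00001d017746 (vte4) and Zm00001d006778 (vte7). The names are those under which the set was defined. Neither the files nor the RefSeq gene table used here pairs any of the 5 identifiers with a name. Leaf RNA (the third leaf) of Zea mays seedlings of 2 lines was sequenced on day 7 of drought. The genotype W9706 had 3 libraries. B73, labelled wild type and the line of the maize reference genome, also had 3. All 6 libraries came from droughted seedlings, so the sole comparison was W9706 against B73 under drought, and a response to drought could not be computed. Nothing in the labels tells whether the 3 libraries of a line derive from different plants, pots or days. A p-value here thus reflects library-to-library variation that could be technical.

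Tocochromanols, the vitamin E compounds, are lipid-soluble antioxidants made in plastids, where they protect membrane lipids from oxidation. A head group, homogentisate, comes from tyrosine breakdown through hydroxyphenylpyruvate dioxygenase (HPPD) and also feeds plastoquinone synthesis. Joining of homogentisate to a phytyl tail leads to tocopherols, the main form in leaves. Joining to a geranylgeranyl tail leads to tocotrienols, which in cereals are chiefly grain compounds. A cyclase then closes the chromanol ring, and a methyltransferase turns gamma-tocopherol into alpha-tocopherol.

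Each library had between 21084151 and 32088105 reads counted in genes. Correlations of log2 CPM (the count of a gene scaled by the library total) were 0.970 to 0.985 within a line and 0.897 to 0.943 between lines. Scaling factors between libraries (TMM, edgeR's trimmed mean of M values) separated the lines, at 1.10 to 1.11 in W9706 and 0.893 to 0.922 in B73, so values scaled by library size alone are given where the difference matters. None of the 10 leaf marker symbols looked up could be paired with an identifier, so the tissue label was not checked. All 5 genes passed the filter on low counts, among the 22135 genes tested. Levels are CPM on TMM-scaled library sizes and are not corrected for gene length, so they are compared between lines and not between genes.

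In W9706 leaves, vte1 and vte4, the genes of the cyclase and of the methyltransferase, had 0.65-fold and 0.67-fold the levels of B73 leaves. The gene of the head group enzyme, hppd1, stood 1.84-fold higher in W9706 but varied widely among its libraries and missed the threshold. The transcripts of hggt1 and vte7 were sparse and overlapped between the lines. In the edgeR quasi-likelihood test with Benjamini-Hochberg adjustment over all genes and a threshold of 0.05, 2 of the 5 genes fell, 0 rose and 3 did not pass. With the replicate number as a block, hppd1 passed too, so that 1 rose, 2 fell and 2 did not pass. DESeq2 gave the same counts. Over all genes, 8047 of 22135 passed with the block, 3567 higher and 4480 lower in W9706. With DESeq2, 7979 of 25406 passed, 3511 higher and 4468 lower. Without the block, at an unadjusted edgeR p under 0.05, the count was 3 of 5, hppd1 being the added one. Of all genes tested, 45.0% were under it. Among all 22135 genes tested, 34.2% passed the edgeR test with adjustment and without the block, 19.0% lower and 15.2% higher in W9706. The median log2 fold change was -0.57 over the 5 genes and 0.01 over all genes, and the median size was 0.61 against 0.36. The direction of calls over all genes depended on scaling: 3367 were higher and 4197 lower in W9706 with TMM, against 8165 and 2622 by library size alone. Without W9706 replicate 2, with TMM, 2070 genes were higher and 3063 lower, so both counts shrank.

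**Figure D1:**
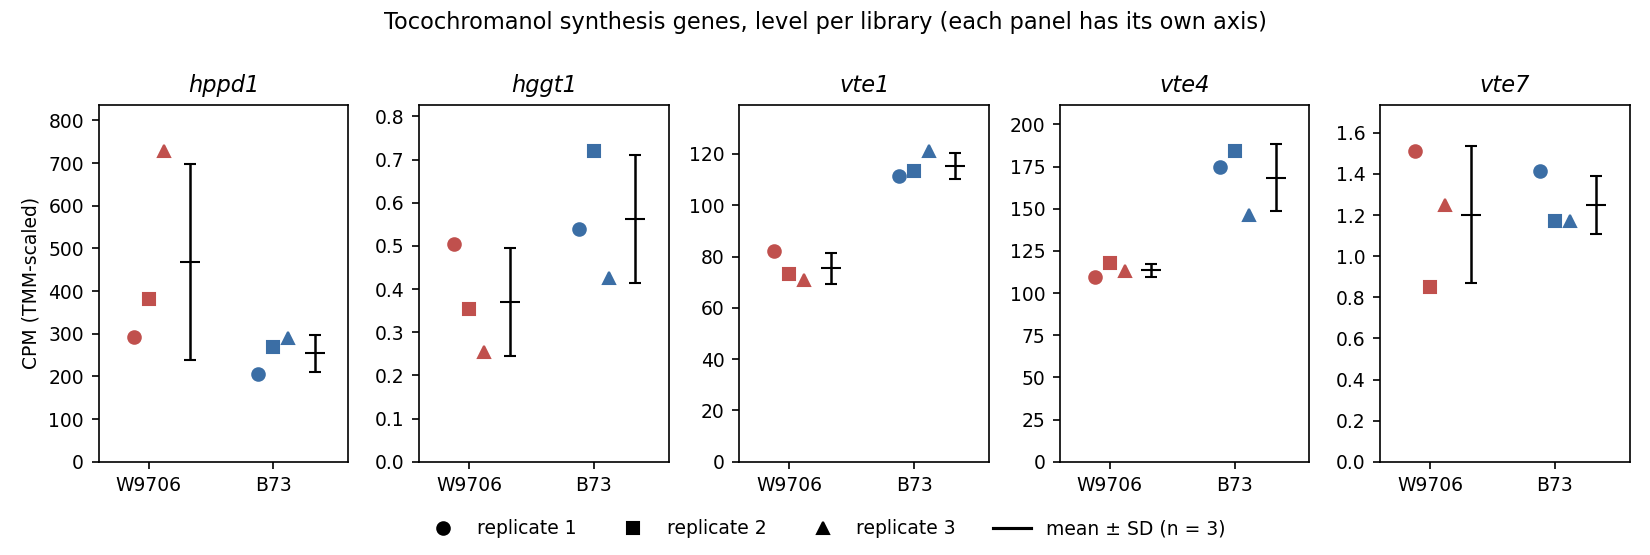
TMM-scaled CPM of each gene in each library (symbols mark the replicate number), with the mean ± SD of 3 libraries beside each line. All W9706 points lie below all B73 points for vte1 and vte4, and the W9706 library at 728 CPM stands apart for hppd1.

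hppd1 encodes 4-hydroxyphenylpyruvate dioxygenase, which makes homogentisate and is the target of a class of maize herbicides. It had 293, 382 and 728 CPM in W9706 replicates 1 to 3, against 205, 268 and 289 CPM in B73 replicates 1 to 3. On this TMM scale the lines did not overlap, but the lowest W9706 library lay just 1.01-fold above the highest B73 library. Lines did not overlap for 50.6% of all genes tested. Means were 468 ± 230 CPM in W9706, against 254 ± 43.8 CPM in B73 (SD, n = 3 each). On the log2 scale the fold change was 0.88 ± 0.34 (SE; 95% interval 0.08 to 1.68), and it had an edgeR adjusted p of 0.0865.

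The call on hppd1 depended on the model. With the replicate number as a block the log2 fold change was 0.78 and the edgeR adjusted p 0.0179. DESeq2 gave an adjusted p of 0.0116. By library size alone the libraries had 325, 420 and 800 CPM in W9706 and 185, 247 and 258 CPM in B73, a wider gap than with TMM. The log2 fold change was then 1.16, with an edgeR adjusted p of 0.0269. Relative to the median of all genes, which that scaling moved from 0.01 to 0.29, it was 0.87. Without W9706 replicate 1 the log2 fold change was 1.13 and the edgeR adjusted p 0.0266.

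A single library carried much of the hppd1 difference. W9706 replicate 3 lay 1.91-fold above the next W9706 library, and 2.42% of all genes tested showed at least that gap in this library. Without it the log2 fold change of hppd1 was 0.41, with an edgeR adjusted p of 0.125. W9706 replicate 3 was the highest of the 6 libraries for 21.2% of all genes. None of the other 4 members was highest there. In the same library hggt1 and vte1 were at their lowest of the W9706 libraries, and vte4 and vte7 lay between the other W9706 values. The biological coefficient of variation of hppd1, edgeR's estimate of the spread between libraries of a line, was 0.29, higher than that of 85.7% of genes.

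hggt1 encodes homogentisate geranylgeranyl transferase, the enzyme that commits homogentisate to tocotrienols. Its reads numbered 14, 10 and 9 in W9706 replicates 1 to 3 and 13, 16 and 8 in B73 replicates 1 to 3. Levels were 0.50, 0.35 and 0.26 CPM in W9706, against 0.54, 0.72 and 0.43 CPM in B73, and the lines overlapped. A count of 0 would have allowed up to 0.0935 to 0.142 CPM (3 counts of the library total, covering counting error only), so hggt1 was detected in all 6 libraries. Pooled over libraries the level was 0.36 CPM in W9706 (95% exact Poisson interval 0.25 to 0.51) and 0.57 CPM in B73 (0.40 to 0.78), intervals that cover counting error only. Its log2 fold change of -0.62 ± 0.45 (SE) had an edgeR adjusted p of 0.320. Its 95% interval ran from 0.32-fold to 1.33-fold, so a difference within that range could not be told from none with these libraries. The log2 fold change was -0.34 by library size alone (-0.63 relative to the median of all genes), -0.39 without either B73 replicate 2 or W9706 replicate 3 and -0.89 without W9706 replicate 1.

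vte1 encodes tocopherol cyclase, and maize mutants of this gene, known as sucrose export defective1, fail to load sucrose from leaf blades. It had 82.3, 73.1 and 70.9 CPM in W9706 replicates 1 to 3, against 111, 114 and 121 CPM in B73 replicates 1 to 3. All W9706 libraries lay below all B73 libraries, and the gap exceeded the spread within either line. W9706 averaged 75.4 ± 6.05 CPM, against 115 ± 5.14 CPM in B73 (SD, n = 3 each). The log2 fold change was -0.61 ± 0.10 (SE), or 0.65-fold with a 95% interval of 0.56 to 0.76, and the edgeR adjusted p was 0.00238. In size this change exceeded that of 68.3% of genes, and 8.11% of genes had a smaller p. Scaled by library size alone, the levels were 91.3, 80.3 and 77.9 CPM in W9706 and 101, 105 and 108 CPM in B73. The lines stayed apart, with a log2 fold change of -0.33 (-0.62 relative to the median of all genes) and an edgeR adjusted p of 0.0232.

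vte4 encodes gamma-tocopherol methyltransferase, which sets the share of tocopherol that ends as the alpha form, the one with the highest vitamin E activity. It had 110, 118 and 113 CPM in W9706 replicates 1 to 3, against 175, 184 and 146 CPM in B73 replicates 1 to 3. The W9706 libraries lay close together and all below the B73 libraries, of which replicate 3 was nearest to them. W9706 averaged 113 ± 4.03 CPM, against 168 ± 19.7 CPM in B73 (SD, n = 3 each). The log2 fold change was -0.57 ± 0.11 (SE), or 0.67-fold with a 95% interval of 0.56 to 0.81, and the edgeR adjusted p was 0.00633. The call was lost by library size alone, where the log2 fold change was -0.29 (-0.58 relative to the median of all genes) and the edgeR adjusted p 0.0725. On that scale the libraries had 122, 129 and 124 CPM in W9706 and 158, 170 and 131 CPM in B73. The lines nearly touched, at 129.2 CPM in the highest W9706 library and 130.5 CPM in the lowest B73 library. The share of all genes whose lines stay apart on that scale was not computed. The call was also lost when B73 replicate 2 and W9706 replicate 1, the libraries nearest to the other line by correlation, were left out together. The log2 fold change was then -0.46 and the edgeR adjusted p 0.0706.

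vte7 encodes an alpha/beta hydrolase of the plastid envelope that bears on the supply of phytyl tails, as known from maize and Arabidopsis. It had 42, 24 and 44 reads in W9706 replicates 1 to 3 and 34, 26 and 22 in B73 replicates 1 to 3. Levels were 1.51, 0.85 and 1.25 CPM in W9706, against 1.41, 1.17 and 1.17 CPM in B73, so the W9706 libraries held both the highest and the lowest value. Its log2 fold change of -0.06 ± 0.32 (SE) had an edgeR adjusted p of 0.905 and a 95% interval of 0.57-fold to 1.61-fold. Its sign turned with upper quartile scaling (0.013) and by library size alone (0.22). Relative to the median of all genes, which these scalings moved too, it was -0.071 and -0.069, against -0.069 with TMM. The sign also turned in the first strand column (0.24), without W9706 replicate 2 (0.14) and without B73 replicate 1 (0.045). Relative to the median of all genes these stayed positive, at 0.23, 0.13 and 0.02. The second strand column gave -0.29. Changes beyond the 95% interval in either direction were not seen, while a difference within it could not be told from none with these libraries.

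**Figure D2:**
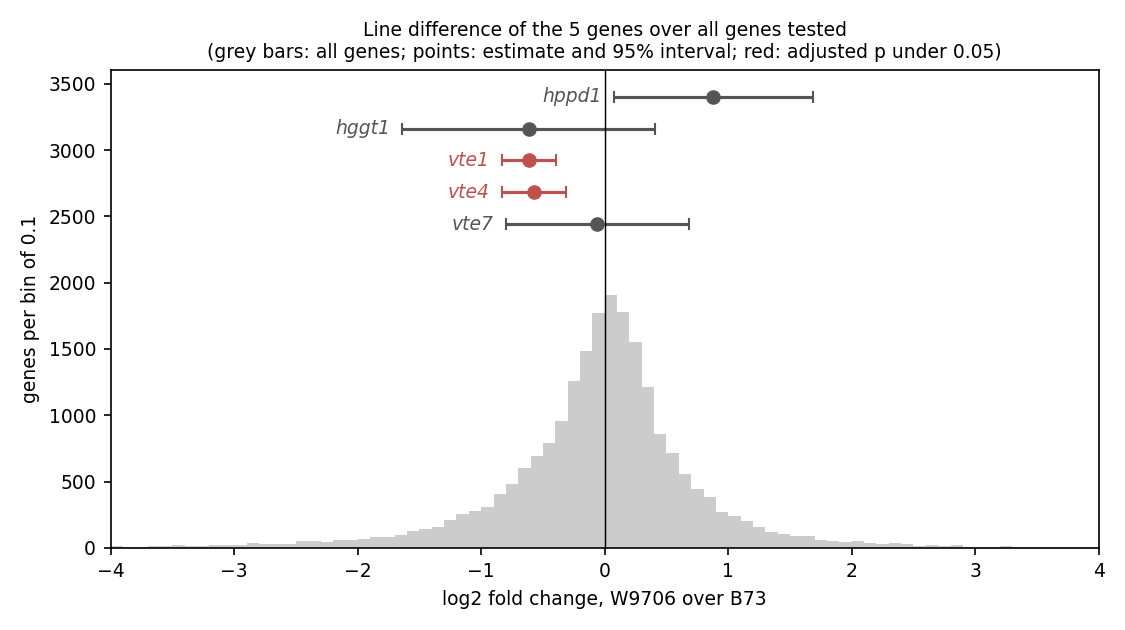
Histogram of the log2 fold change of W9706 over B73 for the genes tested (125 genes beyond 4 in size lie outside the axis), with the estimate and 95% interval of each of the 5 genes above it. The intervals of vte1 and vte4 lie wholly below 0 and are narrow, and those of hggt1 and vte7 span 0. That of hppd1 lies wholly above 0, though its adjusted p missed the threshold. The intervals are not adjusted for the number of genes tested.

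Reads aligned to B73 gene models, so lower counts in W9706 need not mean less RNA. Unmapped reads made up 13.0% to 13.5% of reads in W9706 and 12.7% to 13.8% in B73, and reads in no annotated gene 4.18% to 4.33% in W9706 and 3.68% to 3.79% in B73. The part of alignment in the falls of vte1 and vte4 was not tested. In leaf tissue as a whole, fewer cells that express a gene and less of its RNA per cell cannot be told apart. The reads of each gene split almost evenly between the strand columns, from 45.7% of hggt1 reads to 52.5% of vte4 reads in the first. The libraries as a whole had 50.1% to 50.3%. The shares of vte4 (95% interval 51.80% to 53.14%) and vte1 (51.17%, 50.35% to 51.99%) lay slightly above that, by intervals that cover counting error only. Reads from an antisense partner thus could not be told apart from those of the gene.

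Ratios of the genes' counts within a library do not depend on how libraries are scaled to each other. For each vte1 read there were 3.56, 5.22 and 10.3 hppd1 reads in W9706 replicates 1 to 3, against 1.84, 2.36 and 2.39 in B73 replicates 1 to 3. The lines did not overlap, and the mean log2 ratio was 2.53 ± 0.77 in W9706 and 1.13 ± 0.21 in B73 (SD, n = 3 each), a difference of 1.40. For each vte4 read there were 2.67, 3.25 and 6.44 hppd1 reads in W9706, against 1.17, 1.46 and 1.98 in B73. Here too the lines stayed apart, with a mean log2 ratio of 1.94 ± 0.67 in W9706 and 0.59 ± 0.38 in B73, a difference of 1.35. Without W9706 replicate 3 these differences were 0.98 for hppd1 over vte1 and 0.97 for hppd1 over vte4. With 3 libraries a line an exact permutation test cannot give a p below 0.1, so no test was made of these ratios.

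The ratio of vte1 to vte4 did not separate the lines. Its mean log2 value was -0.59 ± 0.15 in W9706 and -0.54 ± 0.23 in B73 (SD, n = 3 each), a difference of -0.05, smaller than the spread within either line, and of 0.08 without B73 replicate 3. Of the 10 pairs among the 5 genes, the 2 that separated the lines were hppd1 with vte1 and hppd1 with vte4. Set against every other gene tested, the ratio separated the lines for 46.0% of genes with hppd1, 71.6% with vte1, 65.9% with vte4, 35.2% with hggt1 and 26.4% with vte7.

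**Figure D3:**
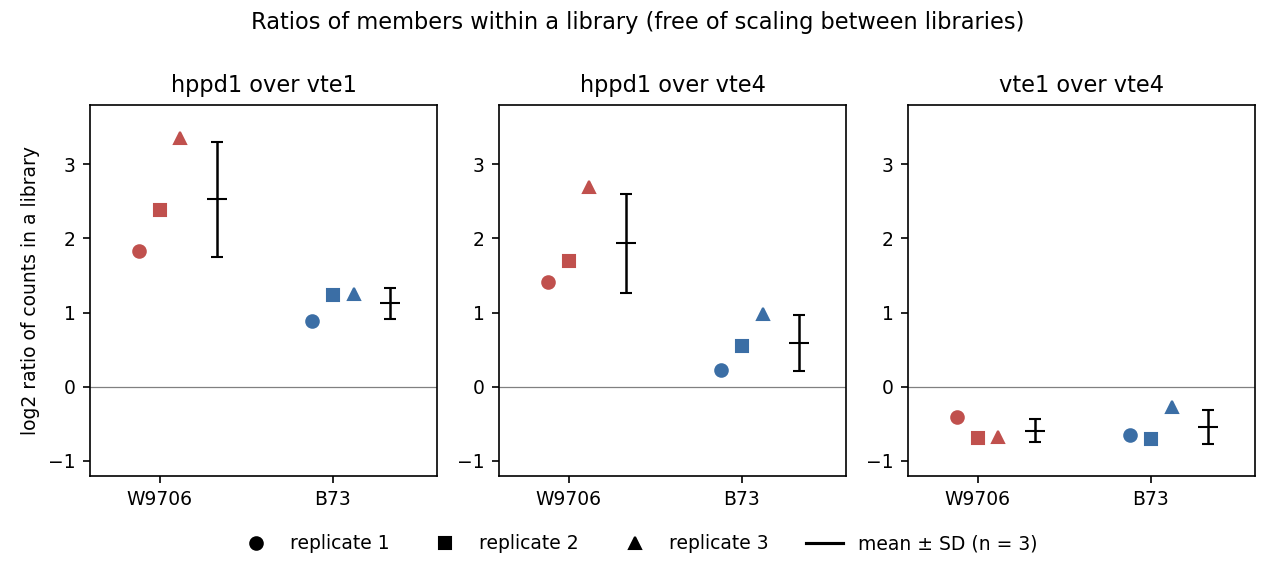
Log2 ratio of the counts of 2 genes within each library (symbols mark the replicate number), with the mean ± SD of 3 libraries beside each line. The ratios of hppd1 to vte1 and to vte4 are higher in every W9706 library than in any B73 library, while those of vte1 to vte4 overlap.

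Likeness of the genes' profiles over the 6 libraries was measured as the root mean square difference of log2 CPM, each gene centred on its own mean, which is small for like profiles. vte1 and vte4 were each other's nearest member, at 0.16. Yet 6.52% of the 19987 other genes averaging 1 CPM or more lay nearer to vte1 and 4.07% nearer to vte4. The measure takes in the difference between lines, which was alike for vte1 and vte4. Log2 deviations from the line mean in W9706 were 0.13, -0.04 and -0.09 for vte1 and -0.05, 0.05 and -0.005 for vte4. In B73 they were -0.05, -0.02 and 0.07 for vte1 and 0.06, 0.14 and -0.20 for vte4. Within a line these genes thus did not move together. The nearest member to hggt1 was vte4, at 0.27, with 3.39% of genes nearer. The nearest to vte7 was vte1, at 0.35, with 47.0% of genes nearer. hppd1 stood farthest from the rest: its nearest member, vte7, lay at 0.68, and 62.9% of genes lay nearer.

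Some unnamed genes lay far closer. The gene nearest to hppd1 was Zm00001d024543, at 0.098 where the median gene lay at 0.62. It had 9.42, 11.5 and 22.6 CPM in W9706 replicates 1 to 3, against 6.89, 9.76 and 10.1 CPM in B73 replicates 1 to 3, and shared the high value in W9706 replicate 3. The nearest to vte1 was Zm00001d022502, at 0.029, with 67.8, 61.1 and 56.3 CPM in W9706 and 93.9, 94.5 and 102 CPM in B73. The nearest to vte4 was Zm00001d054017, at 0.034, with 40.4, 42.5 and 41.8 CPM in W9706 and 61.4, 66.8 and 55.5 CPM in B73. These genes were picked for their likeness among many, so their levels are a description. The sources used here give them no name. For hggt1 and vte7, with few reads, the nearest genes lay at 0.093 and 0.085.

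**Figure D4:**
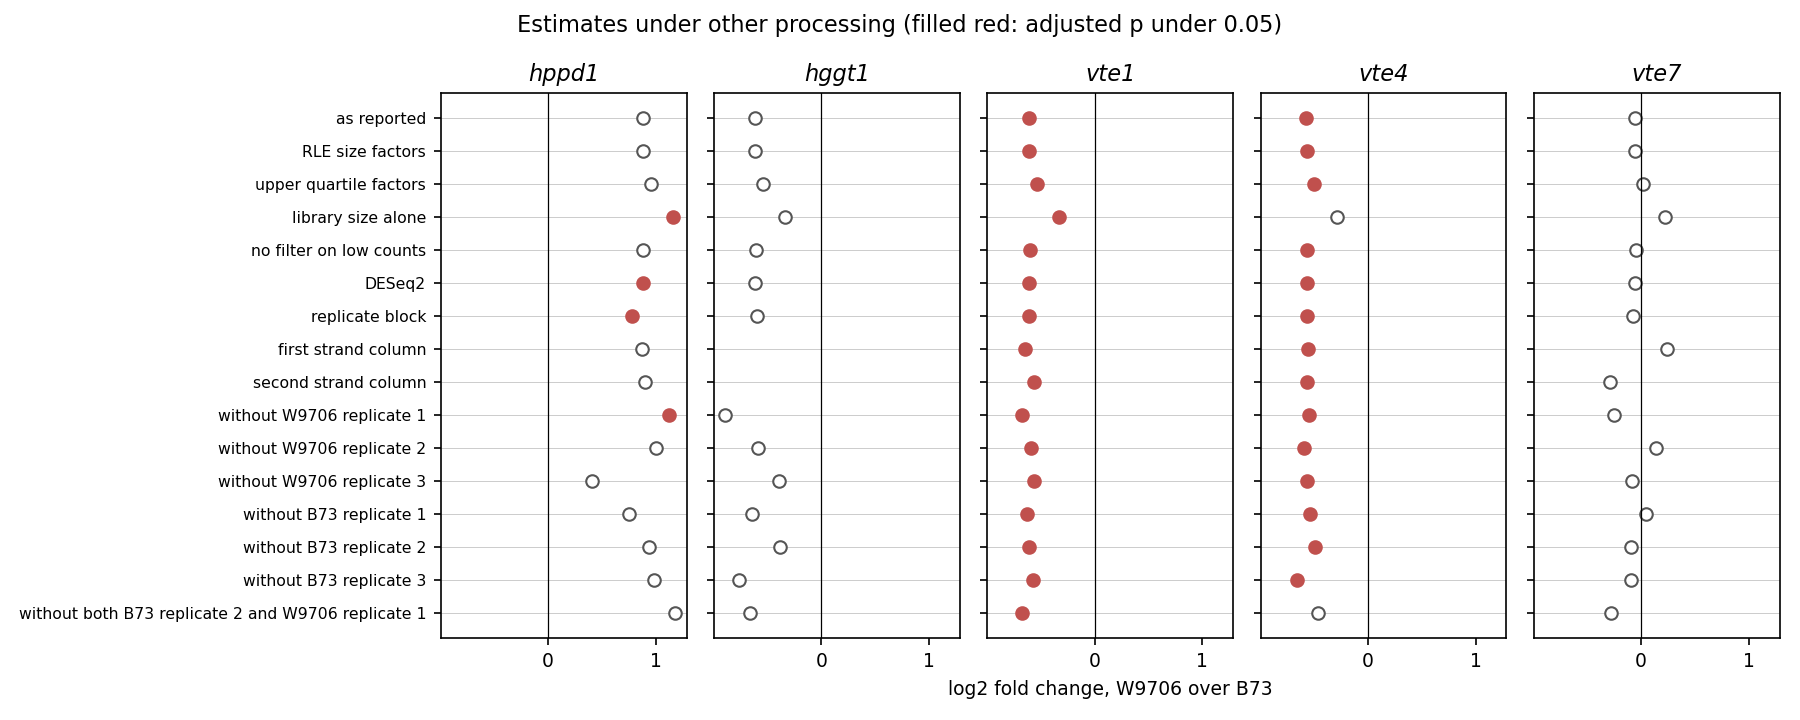
Log2 fold change of W9706 over B73 for each gene as reported (top line) and under each other choice of scaling, filter, tool, strand column or libraries, filled red where the adjusted p was under 0.05. vte1 is called on every line, vte4 on all but library size alone and the joint omission of 2 libraries, and hppd1 on 4 lines; hggt1 has no value in the strand columns, where it did not pass the filter.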

How the data were processed

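The authors deposited whole-number read counts, 1 table per library, laid out as STAR writes them. The submitters' processing notes name STAR. No version, genome build or annotation is given in the sources used here. The unstranded column was used, without the 4 summary lines. Unmapped, unassigned and ambiguous reads made up 12.7% to 13.8%, 3.68% to 4.33% and 1.06% to 1.16% of reads. Multimapping reads were listed as 0, so reads shared with near-identical copies may be missing.

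From these counts, genes were tested with edgeR 4.0.16 (R 4.3.3): filterByExpr, TMM, robust dispersions and the quasi-likelihood F test over 22135 genes, calling genes at a Benjamini-Hochberg adjusted p under 0.05. Standard errors are the log2 fold change divided by the square root of F, and 95% intervals use the moderated t distribution. The test was tested on simulated data. Alternatives were DESeq2 1.42.0, other scalings, no filter, each strand column, a replicate block and omitted libraries. Ratios added 0.5 to both counts before taking logs.

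Deviations of same-numbered libraries from their line means correlated at 0.218, 0.111 and 0.131 for numbers 1 to 3, all over 0.1. However, W9706 replicate 3 correlated at 0.107 with B73 replicate 2 as well, and the labels do not state a pairing. Whether the numbers pair the libraries was thus not settled. The main fit had no replicate block, and the fit with the block is given beside it.

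The rule that fixed the members used no measured value, but the members and lists were chosen with earlier results of these data known. The genes named are the 5 members and, for each of hppd1, vte1 and vte4, the gene with the most similar profile. None of the 23 other pathway symbols and 0 of 44146 nuclear identifiers could be paired through the RefSeq table (assembly Zm-B73-REFERENCE-NAM-5.0), so other pathway genes were not tested. Sequences and promoter motifs were not analysed here.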

Additional observations from a re-analysis of the deposited data

How the results depend on the processing

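vte1 kept its direction and call in all 15 alternatives run, with log2 fold changes of -0.68 to -0.33. vte4 kept both in 13 of 15 and lost its call by library size alone (-0.29) and without both B73 replicate 2 and W9706 replicate 1 (-0.46). By library size alone the median of all genes moved as well, and the values of vte1 and vte4 relative to it were -0.62 and -0.58. hppd1 passed the threshold by library size alone (1.16), with DESeq2 (0.88), with the replicate block (0.78) and without W9706 replicate 1 (1.13), and its adjusted p over the alternatives was 0.0116 to 0.209. Leaving out 1 library gave 0.41 (without W9706 replicate 3) to 1.13. The cause was not tested. vte7 turned positive with upper quartile factors (0.013), by library size alone (0.22) and in the first strand column (0.24). Relative to the median of all genes these values were -0.071, -0.069 and 0.23. The second strand column gave -0.29 for vte7 (-0.30 relative to that median). The log2 fold change of vte7 ran from -0.25 to 0.14 when 1 library was left out, and its adjusted p was at least 0.589 throughout. hggt1 stayed negative and uncalled in the 13 alternatives that gave a value, at -0.89 to -0.34, and it did not pass the filter in either strand column. The replicate block changed no other call among the 5 genes. It called 8047 genes in all, against 7564 without it, and no alternative moved that count by over 1.5 times. The ratios within a library moved by less than the spread between replicates with a prior count of 2 and were unmoved by summing the strand columns, which hold the same reads. Leaving out 1 library, chosen as an alternative after seeing the data, gave differences of 0.98 to 1.75 for hppd1 over vte1, 0.97 to 1.61 for hppd1 over vte4, 0.79 to 1.93 for hppd1 over hggt1 and 0.55 to 1.35 for hppd1 over vte7, each lowest without W9706 replicate 3. hggt1 and vte7 rest on fewer than 50 reads per library, and the parts of depth and of spread between libraries in their wide intervals were not tested; hppd1, with at least 4936 reads per library, had an SE of 0.34.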
